A study of Mus musculus with 6 samples.

Results

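The tripartite motif (TRIM) family was followed in 6 RNA-seq libraries of primary neonatal mouse cardiomyocytes (NMCMs). Its members were the protein-coding rows of the deposited count table whose symbol is Trim and a number. There were 68 such rows among 21848 protein-coding rows and 57010 gene rows in all, and 2 TRIM-named rows of another biotype were left out. At least 10 counts in 3 or more libraries were found for 45 of the 68, and these are the members reported here. All cultures were under hypoxia (HO). The HO + Vehicle group held libraries V1 to V3, and the HO + β-SITO group, which received the plant sterol β-sitosterol, held libraries T4 to T6. The NMCMs were isolated from hearts of newborn C57BL/6 mice and separated from fibroblasts by differential adhesion, so other heart cells could remain. The labels give neither the dose of β-SITO nor the time under hypoxia of these libraries, and no normoxic library was used here. Nothing in the labels says whether the 3 libraries of a group came from separate cell isolations, so p-values measure only the spread between these libraries.

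TRIM proteins are named for a RING finger, B-box and coiled-coil arrangement at the amino terminus, and most are E3 ubiquitin ligases, the enzymes that choose which protein receives ubiquitin. The domain at the carboxyl terminus differs between members and usually binds the substrate. The most common one, PRY-SPRY, is found in many members that act in antiviral defense and whose genes are induced by interferon. Other members have roles in striated muscle, where the MuRF proteins sit at the sarcomere and mark contractile proteins for degradation, or in the nucleus, where the TIF1 proteins regulate transcription on chromatin.

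Vehicle libraries held 16694734 to 17082129 counts and β-SITO libraries 16962152 to 18460522. Levels are given as CPM, the counts divided by TMM-adjusted library sizes and put on the usual scale of the unit, and replicates varied with a biological coefficient of variation of 6.52%. Fold changes compare HO + β-SITO with HO + Vehicle and come from edgeR's quasi-likelihood test over 14799 genes, with Benjamini-Hochberg adjusted p-values. The standard error (SE) beside a log2 fold change comes from the spread of log2 CPM between the 3 libraries of each group, not from the fit. A DEG is a gene with an adjusted p under 0.05 and a change of more than 2-fold. The cultures expressed cardiomyocyte genes, but the summed level of 8 cardiac fibroblast markers (29802 to 31081 CPM in vehicle and 44358 to 45447 in β-SITO libraries) exceeded that of 14 cardiomyocyte markers (7107 to 8127, and 6240 in T4, 10547 in T5 and 10680 in T6). The library names of the HO + β-SITO group carry a suffix that the vehicle names lack, so the treatment cannot be told apart from any difference in how the groups were prepared.

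In the HO + β-SITO group, TRIM transcripts made up a smaller part of all counts. They were 0.255%, 0.252% and 0.258% of the counts in V1, V2 and V3, and 0.151%, 0.153% and 0.152% in T4, T5 and T6. The groups did not overlap, and the mean was 1.68 times higher in vehicle libraries (0.255% ± 0.00289 against 0.152% ± 0.00121, SD, n = 3). An exact two-sided permutation test gave p = 0.1, the smallest value that 3 libraries against 3 allow. Among the 45 members 11 were DEGs with lower levels, or 24.4%, against a background of 10.1% of all tested genes, and 2 were DEGs with higher levels, against a background of 12.8%. Leaving out Trim30b and Trim30c, which reached the minimum of counts only through the vehicle group, 9 of 43 members were DEGs with lower levels. Without the fold limit, 20 of the 45 members were lower (background 33.8%) and 9 were higher (background 33%), while 16 did not pass the test. The groups did not overlap for 29 members, or 64.4%, against 70.5% of all tested genes. The median log2 fold change of the members was −0.17, beside −0.01 for all tested genes, and single members ran from −5.12 to 1.81. Scaling by upper quartiles or by library size alone moves the median of all genes to 0.14, so changes of this size or less depend on the scaling.

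**Figure D1:**
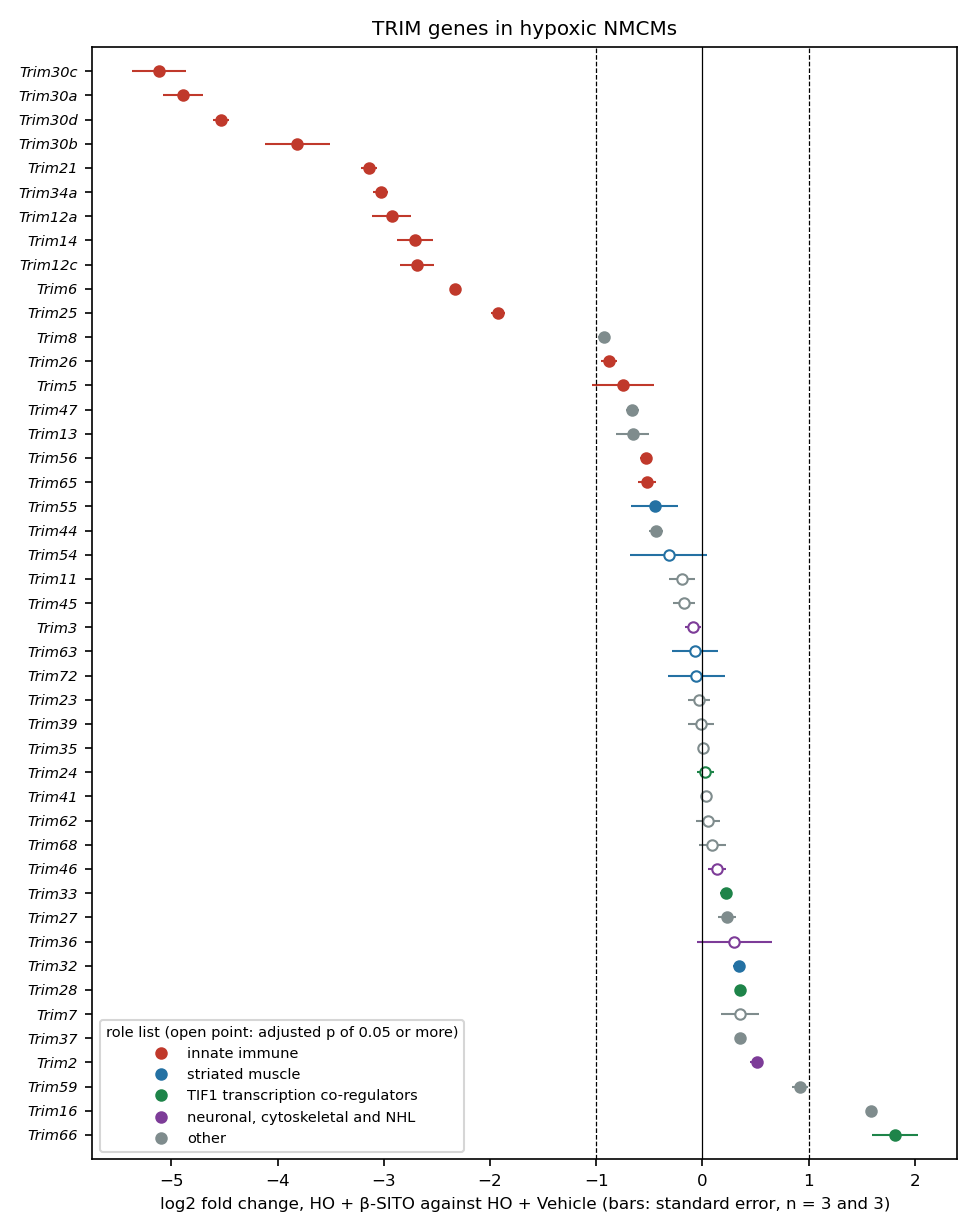
Log2 fold change (HO + β-SITO against HO + Vehicle) of the 45 reported TRIM genes, ordered by value and coloured by role, with standard errors as bars and n = 3 libraries in each group. Filled points have an adjusted p under 0.05 and dashed lines mark 2-fold. The 11 members beyond 2-fold lower, from Trim30c at −5.12 to Trim25 at −1.92, all belong to the innate immune list, and Trim16 and Trim66 lie beyond 2-fold higher.

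The decreases of more than 2-fold lay in the members listed here under innate immunity. This list was drawn up with earlier results of these data known, and Trim8, a regulator of cytokine signaling, was not put on it. Of the 20 members of that list 15 were reported, and all 15 were lower at an adjusted p under 0.05, 11 of them as DEGs. The groups did not overlap in any of the 15, as was so for 70.5% of all tested genes. The median log2 fold change of these 15 members was −2.71. Outside the list 0 of 30 reported members were DEGs with lower levels, 5 were lower and 9 higher without the fold limit, and the median was 0.03. This count of 0 from edgeR was also 0 at an unadjusted p under 0.05, with DESeq2 and with limma-voom, since the largest decrease, that of Trim8, was under 2-fold. The other 5 innate immune members, Trim15, Trim31, Trim34b, Trim38 and Trim40, were below the minimum of counts. The minimum was reached by Trim30b and Trim30c only through the vehicle group, and without them 13 of 13 innate immune members were lower and 9 were DEGs. By class, 15 of 25 PRY-SPRY members were lower and 2 higher, where 33.8% of all tested genes were lower and 33% higher. All 11 DEGs with lower levels had this domain, where 10.1% of all tested genes were such DEGs. Trim47 was the only lower PRY-SPRY member outside the innate immune list. The other PRY-SPRY members outside it were Trim16 and Trim27, which were higher, and 8 that did not pass the test. The decrease in this class thus lay mainly in the innate immune members.

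Most of these DEGs sit side by side on mouse chromosome 7. In GRCm39, the build named by the labels, 10 TRIM genes fill the stretch from base 103868000 to base 104157056, in the order Trim6, Trim34a, Trim5, Trim12a, Trim34b, Trim12c, Trim30b, Trim30c, Trim30a and Trim30d. The first, the second and Trim34b are on the plus strand, the other members on the minus strand. The table has 18 gene rows in this stretch and 0 protein-coding genes other than TRIM genes. Of its 9 reported members all 9 were lower and 8 were DEGs, with a median log2 fold change of −3.03. Among all tested genes 33.8% were lower, 10.1% as DEGs. Trim30b and Trim30c, both among the 8 DEGs of the cluster, reached the minimum of counts only through the vehicle group. The cluster supplied 30.7% to 34.1% of all TRIM counts in vehicle libraries and 3.24% to 4.42% in β-SITO libraries. Mouse Trim5, Trim12a, Trim12c and the Trim30 genes are relatives of primate TRIM5, a factor that binds incoming retroviral capsids.

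**Figure D2:**
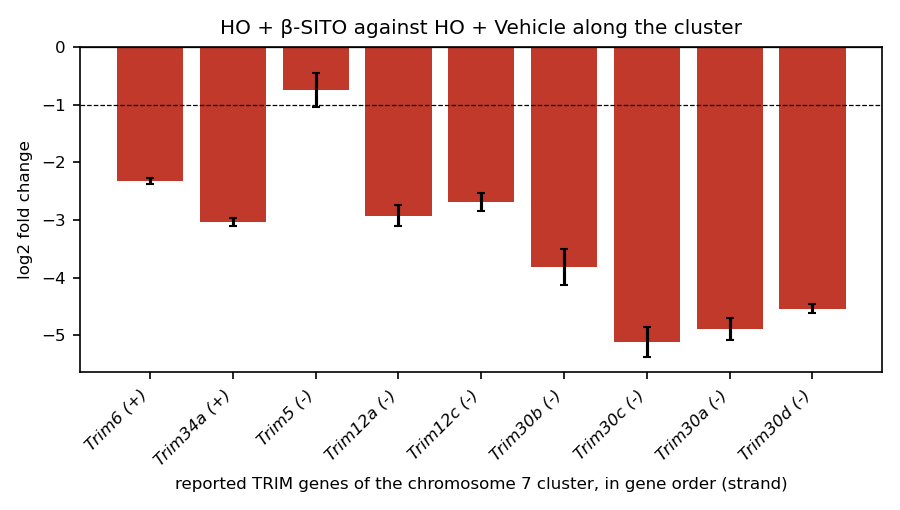
Log2 fold change (HO + β-SITO against HO + Vehicle) of the 9 reported TRIM genes of the chromosome 7 cluster, in the order of the genes and with the strand in brackets. Error bars are standard errors (n = 3 libraries in each group) and the dashed line marks 2-fold lower. The 4 Trim30 genes have the lowest values, −3.81 to −5.12, and Trim5 has the smallest decrease, −0.75.

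Because these genes moved together, their promoters were read for short sequence motifs. Windows of 300 bases, 250 before and 50 after the start, were taken from RefSeq (GRCm38.p6) and were found for 35 of the 45 members. The core of the interferon-stimulated response element, which factors of the IRF family bind, was searched as GAAANNGAA on both strands. It was present in 9.76% of 27025 genes with a window, in 9 of 13 innate immune members (69.2%) and in 2 of 22 other members (9.09%), which were Trim2 and Trim7. The innate immune list was drawn up with earlier results of these data known. Trim30a, Trim30d, Trim5, Trim12a, Trim12c and Trim34a, which hold the motif, are neighbours in the chromosome 7 cluster and not independent genes. These shares are therefore a description and were not tested. The stretches around the match are shown for the 9 members that hold it, each 29 bases long, read 5′ to 3′ on the strand of the gene, with the match to GAAANNGAA or to its reverse complement in capitals.

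Trim30a (chr7:104465210-104465238, minus strand): gttctttagtTTCTTTTTCtcagttcctg

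Trim30d (chr7:104507871-104507899, minus strand): gttctttagtTTCTTTTTCtcagttcctg

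Trim12a (chr7:104315466-104315494, minus strand): gagttgtggtTTCTGTTTCatttccagag

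Trim5 (chr7:104288136-104288164, minus strand): gagttgtggtTTCTGTTTCatttccagag

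Trim12c (chr7:104353359-104353387, minus strand): gagttgtggtTTCTGTTTCatttccagct

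Trim34a (chr7:104244458-104244486, plus strand): ggtttggagtTTCAGTTTCttttctctgc

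Trim21 (chr7:102565448-102565476, minus strand): ctgagagGAAACTGAAAGTGAAatttgga

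Trim25 (chr11:88999384-88999412, plus strand): gcccctcctgTTCAGTTTCgattccttcc

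Trim26 (chr17:36836980-36837008, plus strand): ttccgatTTCACTTTCCTTTTCtcgggcc

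The stretches of Trim30a and Trim30d are identical, as are those of Trim12a and Trim5. Trim21 and Trim26 each hold 2 matches that overlap. The match begins 35 bases before the start in Trim30a, 40 in Trim30d, 48 in Trim5, 28 in Trim12c, 9 in Trim25 and 159 in Trim26, and it begins 11 bases after the start in Trim34a and Trim12a and 13 in Trim21. For Trim30a the upstream start is shown. Trim6, Trim30b, Trim30c and Trim56 had a window without these letters, which says nothing about binding outside the window. The core of the gamma-activated site, TTCNNNGAA (its own reverse complement), was present in 9.55% of all genes with a window, in 1 of 13 innate immune members (Trim30c) and in 2 of 22 others, and no member held both motifs. The kappa B sequence GGACTTTCC was present in 0.400% of all genes and in 0 of the 35 members with a window. TATAAA was present in 15.7% of all genes, in 1 of 13 innate immune members and in 4 of 22 others.

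Trim30a, which in mice limits Toll-like receptor signaling through the adaptor proteins TAB2 and TAB3, was the most abundant TRIM transcript of the vehicle group per length. Its levels were 479, 492 and 542 CPM in V1, V2 and V3 and 20.7, 16.9 and 13.4 CPM in T4, T5 and T6. Every vehicle library thus lay far above every β-SITO library, with a log2 fold change of −4.89 ± 0.19 (SE, adjusted p = 8e-15). Trim30d, its neighbour, had 150, 161 and 159 CPM in vehicle libraries and 7.40, 6.46 and 6.35 CPM in β-SITO libraries, a log2 fold change of −4.53 ± 0.08. The transcripts of both genes share some sequence: 4.41% of the 100-base words of Trim30a also occur in Trim30d, so some reads could have been assigned to the wrong copy. Trim30a alone made up 17.8% to 19.8% of all TRIM counts in vehicle libraries and 0.928% to 1.44% in β-SITO libraries.

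Trim30b and Trim30c had few reads after β-SITO. Trim30c had 119, 122 and 154 counts in vehicle libraries and 5, 5 and 3 in β-SITO libraries. Relative to the TMM-adjusted library sizes, this was 35.8 times more in vehicle (95% exact interval 20.7 to 67.8). Trim30b had 48, 35 and 53 counts against 3, 5 and 3, a ratio of 14.6 (7.89 to 29.9). Both groups of values were far apart, and the intervals cover counting error only. The fitted log2 fold changes were −5.12 ± 0.26 for Trim30c (adjusted p = 8.86e-11) and −3.81 ± 0.31 for Trim30b (adjusted p = 1.25e-07).

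The other genes of the cluster were lower by smaller factors. Trim34a, a PRY-SPRY member related to Trim6, had 44.5, 42.1 and 47.2 CPM in vehicle libraries and 5.86, 5.34 and 5.15 in β-SITO libraries (log2 fold change −3.03 ± 0.07). Trim12a had 50.7, 63.4 and 65.3 CPM against 8.48, 8.77 and 6.40 (−2.92 ± 0.18), and Trim12c had 83.2, 102.6 and 93.7 CPM against 16.0, 15.5 and 12.0 (−2.69 ± 0.16). In all of them the lowest vehicle library was several times above the highest β-SITO library. Trim6, whose ubiquitin chains help to activate the kinase IKKε, was scarcer, with 8.02, 7.59 and 7.69 CPM against 1.54, 1.63 and 1.46 (−2.33 ± 0.05). Adjusted p-values of these genes ran up to 4.23e-09, that of Trim6. Of the 100-base words of Trim34a 21.0% also occur in Trim34b, so the counts of this pair are uncertain in their division. Trim34b itself had at most 11 counts in any library.

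Trim5 was the exception in the cluster. It had 46, 72 and 66 counts in vehicle libraries and 54, 43 and 32 in β-SITO libraries, or 2.91, 4.51 and 4.09 CPM against 2.77, 2.42 and 1.67 CPM. On this TMM-adjusted scale the groups were only just separate, V1 lying close above T4. Its log2 fold change was −0.75 ± 0.29 (adjusted p = 0.0094), and it lost the call without V2 (−0.61, adjusted p = 0.0592) or without V3 (−0.67, adjusted p = 0.0503). Trim5 and Trim12a carry the same 29 bases around the match shown above, with log2 fold changes of −0.75 ± 0.29 and −2.92 ± 0.18. The difference between these genes was not tested. Since 9.73% of its 100-base words occur in other TRIM transcripts, the division of reads between Trim5 and its neighbours is uncertain.

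**Figure D3:**
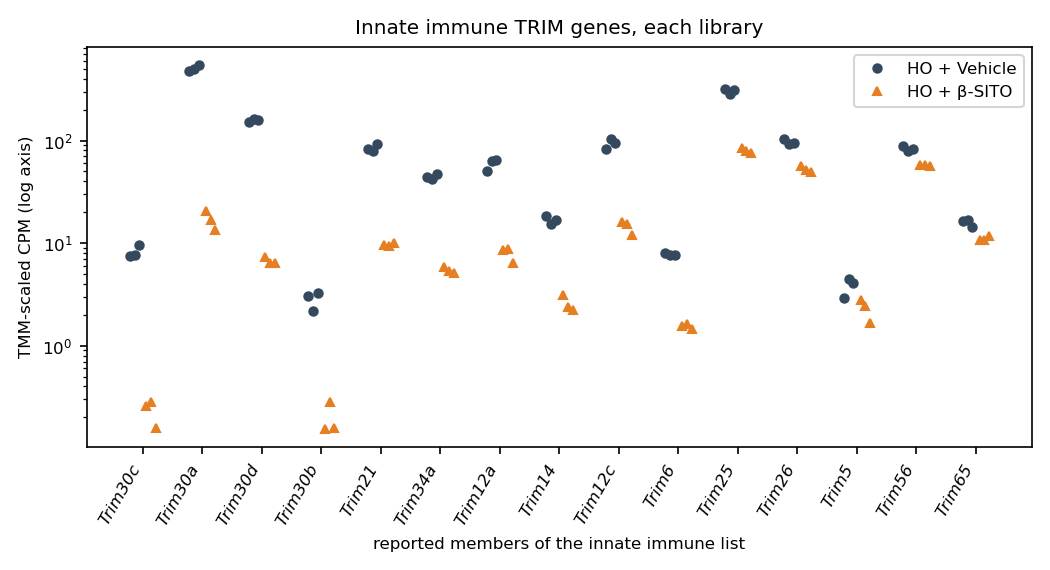
TMM-scaled CPM (log axis) of the 15 reported innate immune TRIM genes in each library, with circles for V1 to V3 and triangles for T4 to T6 from left to right, ordered by fold change. Circles and triangles do not overlap in any of the 15 genes, as is so for 70.5% of all tested genes. Trim30a lies at 479 to 542 CPM in vehicle libraries and 13.4 to 20.7 CPM in β-SITO libraries, and Trim5 has the closest groups.

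Outside the cluster, 6 innate immune members were reported and all 6 were lower, 3 of them as DEGs. By comparison, 33.8% of all tested genes were lower, 10.1% as DEGs. The median log2 fold change of these 6 members was −1.40. Trim21, a cytosolic receptor for antibody that targets antibody-coated viruses for degradation, had 82.0, 79.9 and 92.8 CPM in vehicle libraries and 9.56, 9.27 and 9.99 CPM in β-SITO libraries. Its log2 fold change was −3.14 ± 0.07 (adjusted p = 3.43e-14). It lies on the same chromosome as the cluster, at base 102207128, and Trim68, which starts at base 102326789 between Trim21 and the cluster, had 10.2, 8.90 and 9.05 CPM against 8.68, 10.2 and 11.2 (0.09 ± 0.13, adjusted p = 0.509). Trim68 thus overlapped between the groups although it lies between genes that fell.

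Trim25, the ligase that ubiquitinates the RNA sensor RIG-I, was the second most abundant member of the vehicle group per length. It had 315, 284 and 308 CPM in V1, V2 and V3 against 84.1, 79.7 and 75.5 CPM in T4, T5 and T6, a log2 fold change of −1.92 ± 0.06 (adjusted p = 6.37e-13). It stayed among the more abundant members after β-SITO, where it ranked 7 by level per kilobase. Trim14, a member without a RING finger that acts as an adaptor of the mitochondrial antiviral protein MAVS, had 18.5, 15.5 and 16.7 CPM against 3.13, 2.36 and 2.24 (−2.71 ± 0.17). The gene overlaps Nans on the other strand, and the sources used here do not say whether reads were counted by strand.

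The 3 remaining innate immune members were lower by less than 2-fold. Trim26, which acts on the transcription factor IRF3, had 104, 92.2 and 95.6 CPM against 56.8, 51.7 and 49.8 (−0.88 ± 0.08). Trim56, linked to the DNA sensing adaptor STING, had 88.7, 78.9 and 81.9 CPM against 57.9, 58.0 and 56.5 (−0.53 ± 0.05). Trim65, a ligase of the RNA sensor MDA5, had 16.5, 16.8 and 14.2 CPM against 10.6, 10.7 and 11.7 (−0.52 ± 0.09). All were separate between the groups, and adjusted p-values were 0.000277 or less. Trim65 overlaps Trim47 on the same strand, so that part of the reads fits both genes.

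The genes through which these ligases act, and the interferon pathway that is known to induce them, were counted in the same fit. Of 17 tested genes of nucleic acid sensing, 11 were lower, 8 of them as DEGs, and 3 were higher (median log2 fold change −0.89). The DEGs included Rigi, the sensor that Trim25 modifies (−3.28 ± 0.07), Ifih1, which encodes MDA5 (−3.70 ± 0.12), Sting1 (−2.48 ± 0.11) and Irf7, an interferon-inducible transcription factor (−6.85 ± 0.13). Rnf135, another RIG-I ligase, had −1.87 ± 0.09. By contrast Mavs (0.41 ± 0.09) and Irf3 (0.37 ± 0.05) were higher. All 8 tested genes of the interferon input list were lower and 5 were DEGs, among them Stat2 (−3.43 ± 0.09) and Irf1 (−3.51 ± 0.05), with a median of −1.68. Ifnb1, the gene of interferon β, had 1 count in V2 and 0 in the other libraries, so its level could not be compared at this depth. As background for these counts, 33.8% of all tested genes were lower, 10.1% as DEGs, and 33% were higher.

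Among 7 tested TRIM relatives with other names, Pml, which organizes nuclear bodies, fell from 223 ± 11.0 CPM to 51.7 ± 2.11 (log2 fold change −2.11 ± 0.05) and was the DEG of this list. Mid1, a microtubule-bound ligase, had −0.96 ± 0.11, while its paralog Mid2 (0.55 ± 0.06) and Rnf207 (0.98 ± 0.26) were higher. Of 17 tested E1 and E2 enzymes, which hand ubiquitin or ISG15 to the ligases, 13 were lower, 3 of them as DEGs, and 3 were higher, with a median of −0.52. Over all tested genes 33.8% were lower, 10.1% as DEGs, and 33% higher, so the enzymes held more lower and fewer higher members than the background. The largest decreases of this list were in the enzymes that serve the ubiquitin-like protein ISG15, namely Uba7 (−3.89 ± 0.04) and Ube2l6 (−3.75 ± 0.07). The third DEG was Ube2v1 (−1.38 ± 0.22), at 1.02 ± 0.105 CPM in vehicle libraries. Ube2n, the partner of Ube2v1 in chain formation, changed by −0.45 ± 0.04.

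Markers of other cell types also differed between the groups. Summed over 9 macrophage markers, levels were 1116 to 1228 CPM in vehicle and 2624 to 3221 CPM in β-SITO libraries, with 7 of the 9 higher, 6 of them as DEGs, and Adgre1 (−0.06 ± 0.09) and Ptprc (−0.03 ± 0.12) past no threshold. All 7 endothelial markers were DEGs with higher levels (summed 202 to 232 CPM against 812 to 844). Of 8 fibroblast markers 5 were higher and 2 lower, and all 4 smooth muscle markers were higher. Among all tested genes 33% were higher, 12.8% as DEGs, and 33.8% were lower. Erythroid markers were at or near 0 in every library. The part of these differences in the decrease of the innate immune TRIM genes was not tested. In bulk libraries, fewer cells of a type and less RNA per cell cannot be told apart.

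The 5 striated muscle members gave no DEG, and library T4 stood apart from T5 and T6 in most of them. Trim55 (MuRF2) had 45.7, 37.9 and 40.5 CPM in V1, V2 and V3 and 22.3, 34.5 and 34.3 CPM in T4, T5 and T6, a log2 fold change of −0.45 ± 0.22 (adjusted p = 0.00679). It was the muscle member that passed the test with a lower level, and it lost the call without V1 (−0.35, adjusted p = 0.0537) and with library size scaling (−0.30, adjusted p = 0.0514). Without T4 its log2 fold change was −0.26. Trim63 (MuRF1), the best known ligase of muscle atrophy, had 88.4, 78.9 and 78.5 CPM against 57.1, 87.9 and 89.5 CPM. T5 and T6 were thus within or just above the vehicle range and T4 was below it (−0.07 ± 0.22, adjusted p = 0.643).

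Trim72, which encodes the membrane repair protein MG53, had 32.4, 26.3 and 23.4 CPM in vehicle libraries and 18.8, 30.6 and 29.6 CPM in β-SITO libraries (−0.06 ± 0.26, adjusted p = 0.762). Trim54 (MuRF3) had 5.43, 7.02 and 5.58 CPM against 2.83, 5.96 and 5.73 (−0.32 ± 0.37, adjusted p = 0.222). In each of these T4 was the lowest library. The direction of Trim63 and Trim72 turned with the scaling and without T4. Trim32, a ligase with NHL repeats whose loss causes a muscular dystrophy, had 28.9, 25.5 and 28.3 CPM against 34.8, 34.7 and 35.5 and was higher (0.35 ± 0.06, adjusted p = 0.000712), with no drop in T4.

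The cardiomyocyte markers moved in the same way between the β-SITO libraries, with a summed level of 6240 CPM in T4, 10547 in T5 and 10680 in T6. Of the 14 markers, 5 were higher, 2 lower and 7 did not pass the test, where 33% of all tested genes were higher and 33.8% lower. Divided by these markers, which is a measure chosen after the values had been seen, Trim55 had 5.33 to 5.65 counts per 1000 marker counts in vehicle libraries and 3.21 to 3.57 in β-SITO libraries. Trim63 had 10.9 to 11.1 against 8.32 to 9.14, Trim72 3.26 to 3.98 against 2.76 to 3.01, and Trim54 0.668 to 0.987 against 0.452 to 0.564. On this scale T4 was no longer the lowest library of the HO + β-SITO group except in Trim54, and the groups did not overlap in any of the 4 genes (exact two-sided permutation p = 0.1 each, the smallest possible, and 0.125 after Benjamini-Hochberg adjustment over 5 genes). For Trim32, which had shown no drop in T4, the division set T4 apart, with 5.58 against 3.29 in T5 and 3.32 in T6 and 3.56 to 3.94 in vehicle libraries, and the groups overlapped (p = 1, exact permutation test). The ratio depends on the markers as much as on the TRIM genes, and its marker sum includes Myl7, Nppa and Myh7, which were DEGs with higher levels. Myh6, at a mean of 1973 CPM in vehicle and 2849 CPM in β-SITO libraries, was higher by less than 2-fold, while Tnnt2 and Pln were lower.

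**Figure D4:**
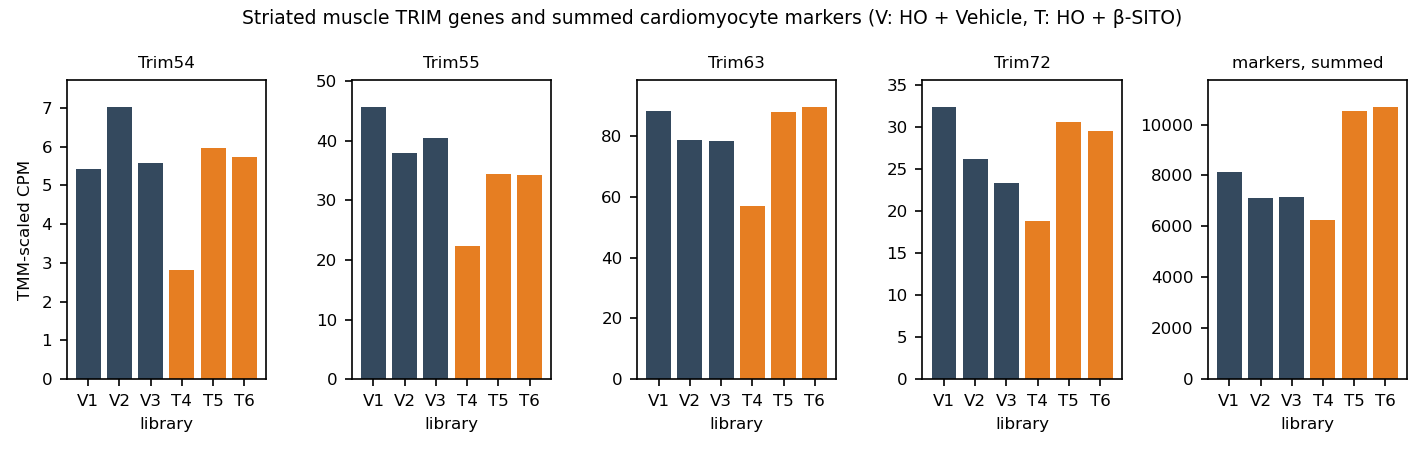
TMM-scaled CPM of 4 striated muscle TRIM genes and of the summed 14 cardiomyocyte markers (markers, summed) in each library, with dark bars for V1 to V3, orange bars for T4 to T6 and axes that start at 0. T4 has the lowest bar in every panel, with 22.3 CPM of Trim55 against 34.5 and 34.3 CPM in T5 and T6.

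In the list of muscle atrophy and MuRF partners 8 of 13 tested genes were higher and 1 lower, against 33% and 33.8% of all tested genes, with a median log2 fold change of 0.40. Fbxo32 (atrogin-1), the other main ligase of muscle atrophy, changed by −0.20 ± 0.16 (adjusted p = 0.105). Its known activators Foxo1 (0.95 ± 0.14), Foxo3 (0.26 ± 0.05) and Foxo4 (0.68 ± 0.04) were higher. Myh7, a target of MuRF ligases at the protein level, was the DEG of this list (1.61 ± 0.54) at 13.4 ± 3.26 CPM in vehicle libraries. Its level was 18.4 CPM in T4, close above V1 (17.1 CPM), and 54.0 and 50.6 CPM in T5 and T6.

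Members of the TIF1 group, which carry a PHD finger and a bromodomain, were higher or did not pass the test. Trim28 (KAP1), the co-repressor that KRAB zinc finger proteins recruit to silence transposons, had 152, 141 and 138 CPM in vehicle libraries and 186, 177 and 186 CPM in β-SITO libraries, a log2 fold change of 0.35 ± 0.05 (adjusted p = 7.76e-05). Trim33, which restrains Smad signaling, had 28.2, 31.5 and 28.6 CPM against 33.1, 35.5 and 34.4 (0.22 ± 0.06, adjusted p = 0.0155). Trim24, a co-regulator of nuclear receptors, had 25.9, 29.02 and 31.3 CPM against 29.5, 28.8 and 29.6 (0.03 ± 0.08, adjusted p = 0.784). Trim66 was the DEG of the group and the member with the largest increase, from 2.46, 1.63 and 2.60 CPM to 8.38, 7.59 and 7.60 CPM (1.81 ± 0.22, adjusted p = 2.07e-07). The β-SITO libraries of Trim66 thus lay about 3.51 times above the vehicle libraries in the fit, at a low level in both groups.

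Of 12 tested partners of Trim28 in heterochromatin and sumoylation, 4 were higher and 3 lower, against 33% and 33.8% of all tested genes, with a median of 0.08. Setdb1, the histone methyltransferase that Trim28 brings to its targets, changed by −0.08 ± 0.06 (adjusted p = 0.283). Cbx5, which encodes the heterochromatin protein HP1α, was higher (0.43 ± 0.07). The DEGs were Chd3 (1.37 ± 0.08) and Morc3 (−1.27 ± 0.09). Trim28 overlaps Zbtb45 on the other strand.

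Among the neuronal, cytoskeletal and NHL members 4 of 7 were reported. Trim2, a ligase of neurofilament light chain, had 12.3, 14.1 and 13.4 CPM in vehicle libraries and 19.0, 18.7 and 19.2 CPM in β-SITO libraries and was higher (0.51 ± 0.06). Trim46, which organizes axonal microtubules, had 6.57 to 7.90 CPM against 7.64 to 8.43 CPM (0.14 ± 0.09), and Trim36 had 0.558 to 1.20 CPM against 0.937 to 1.34 CPM (0.30 ± 0.35). Neither passed the test, and their groups overlapped. Trim3 was also past no threshold (−0.09 ± 0.08, turning to 0.06 with upper quartile or library size scaling).

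Of the 17 other reported members, 9 did not pass the test. Lower levels were found in 4 and higher levels in 4, against 33.8% and 33% of all tested genes. Trim16, which lacks a RING finger and takes part in the clearance of damaged lysosomes, was the DEG among them, from 5.31, 5.14 and 5.45 CPM to 15.6, 15.9 and 16.3 CPM (1.58 ± 0.03, adjusted p = 2.46e-09). Its span overlaps Fbxw10 on the same strand. Trim59, a membrane-bound member, had 16.9, 18.3 and 18.8 CPM against 35.7, 35.4 and 31.2 (0.92 ± 0.08) and lay just below 2-fold, which it passed with upper quartile (1.06) or library size scaling (1.07). The remaining higher members were Trim37 (0.36 ± 0.04), a ligase of histone H2A and of centriole proteins, and Trim27 (0.23 ± 0.08).

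Trim8, a regulator of cytokine signaling through SOCS proteins, was the closest to 2-fold among the members that fell by less. It had 71.9, 72.3 and 70.4 CPM in V1, V2 and V3 and 40.4, 36.4 and 35.8 CPM in T4, T5 and T6 (−0.93 ± 0.06, adjusted p = 6.41e-09). Trim47 had 117, 121 and 108 CPM against 72.2, 76.3 and 70.6 (−0.66 ± 0.06), and Trim44, a member that lacks a RING finger, had 146, 133 and 154 CPM against 108, 104.9 and 107 (−0.43 ± 0.07). All were separate between the groups. The last of the lower members was Trim13 (−0.66 ± 0.15), a ligase anchored in the endoplasmic reticulum. Among all members, the values nearest the 2-fold limit were Trim25 (−1.92) and Trim6 (−2.33) inside and Trim8 (−0.93) and Trim26 (−0.88) outside on the lower side. On the higher side they were Trim16 (1.58) and Trim66 (1.81) inside and Trim59 (0.92) and Trim2 (0.51) outside.

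Trim35 was steady in level, with 214, 196 and 202 CPM in vehicle libraries and 206, 204 and 204 CPM in β-SITO libraries. Its log2 fold change was 0.00 ± 0.04 (adjusted p = 0.957), although upper quartile scaling gives 0.15 with an adjusted p of 0.0279. The rest of the members that did not pass the test were Trim11, Trim23, Trim39, Trim41, Trim45, Trim62, Trim68 and Trim7, with log2 fold changes from −0.19 to 0.35. Of these Trim23 (−0.03) and Trim39 (−0.01) turned to 0.11 and 0.13 with upper quartile scaling. The 23 members below the minimum had at most 16 counts in a library, and 8 of them had 0 counts in every library.

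The leading TRIM genes of the family differed between the groups. Per kilobase of exon, the 5 highest means in the vehicle group were Trim30a (123 CPM per kb), Trim25 (52.6), Trim35 (44.2), Trim47 (42.2) and Trim30d (41.6). In the HO + β-SITO group they were Trim35 (44.3), Trim28 (44.1), Trim63 (27.5), Trim47 (26.7) and Trim44 (18.9). Trim30a moved from rank 1 to rank 19 and Trim30d from rank 5 to rank 32, while Trim35 moved from rank 3 to rank 1 without a detected change of its own. Trim35, Trim47 and Trim30d in the vehicle group, and Trim35 with Trim28 and Trim63 with Trim47 in the HO + β-SITO group, differed from their neighbours by less than the SD between libraries. The innate immune members summed to 51.9% of the family level per kilobase with vehicle and to 14.1% with β-SITO, and the striated muscle members to 10.9% and 19.4%. In CPM per kb the sums were 330 and 47.2 for the innate immune members and 69.4 and 64.9 for the striated muscle members. The share of the striated muscle members thus rose although their summed level did not.

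**Figure D5:**
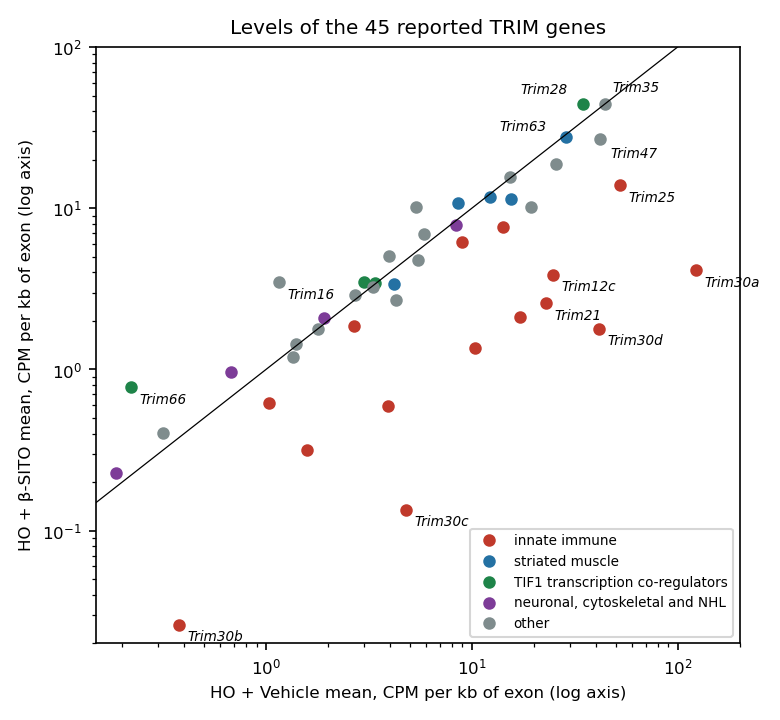
Mean level of the 45 reported TRIM genes in the HO + Vehicle group (horizontal) and the HO + β-SITO group (vertical), in CPM per kilobase of exon on log axes, coloured by role, with the line of equal levels. Innate immune members lie below the line, from Trim30a at 123 against 4.14 to Trim30b at 0.377 against 0.0262, while Trim35 and Trim63 lie close to it and Trim66 and Trim16 above it.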

How the data were processed

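Hypoxic NMCMs were profiled by RNA-seq, with 3 HO + Vehicle and 3 HO + β-SITO libraries grouped by the sample labels. The authors deposited 1 table of raw counts per gene, without normalization. The labels name FastQC, HISAT2, featureCounts and the build GRCm39, while versions, strand setting and the handling of reads with several matches are not given in the sources used here. The study names an ABclonal library kit and the labels an Illumina one. All mapped columns were used.

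From these counts, fold changes were computed on the whole table with R 4.3.3 and edgeR 4.0.16 (filterByExpr, TMM, quasi-likelihood test, Benjamini-Hochberg adjustment over 14799 genes, group as the only term), and the study's DEG threshold (adjusted p under 0.05, more than 2-fold) was kept. The fit was tested on simulated data, with the same biological coefficient of variation for every gene. Changes were planted only in genes with higher counts, so members with few counts were not covered. Totals were 16694734 to 18460522 counts per library. Alternatives were DESeq2 1.42.0, limma-voom (limma 3.58.1), glmTreat, other scalings, other filters on low counts and leaving out each library. Single values were compared by exact permutation tests, whose smallest p is 0.1. Exon lengths and shared words of 100 bases came from GENCODE vM21, promoter windows from RefSeq (GRCm38.p6), whose coordinates differ from those of the table. Interval limits cover counting error only.

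The members, role lists, companion gene lists and markers were chosen with earlier results of these data known. The genes named with values were the 8 DEG members with the largest decrease and the 8 with the largest increase (of which there were 2), the reported innate immune, striated muscle and TIF1 members, the 5 highest per kilobase in each group, the nearest 2 on each side of the 2-fold limit and up to 3 examples of each other role. Trim3, Trim7, Trim11, Trim13, Trim23, Trim27, Trim37, Trim39, Trim41, Trim45, Trim62 and Trim68 and the examples from companion lists were named after their values had been seen. The values of 1 gene of the companion lists are not reported here.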

Additional observations from a re-analysis of the deposited data

How the results depend on the processing

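The 11 TRIM DEGs with lower levels were 11 under every alternative run, and those with higher levels were 2, or 3 with upper quartile or library size scaling. Without the fold limit, 19 to 20 members were lower and 8 to 12 higher. The median log2 fold change of the members moved from −0.17 to −0.029 with upper quartile scaling and to −0.024 with library size alone, as the median of all genes rose to 0.14. Leaving out 1 library at a time gave medians of −0.18 to −0.068, the latter without T4, and differences in the TRIM share of counts of −0.105 to −0.102 percentage points. Of 585 pairs of a member and an alternative, 552 kept direction and side of the threshold, 5 lost the call and 6 gained it (Trim35, Trim41 and Trim7 with upper quartile and library size scaling). Trim27 lost it without V3 (0.19, adjusted p = 0.0548), and Trim5 and Trim55 as given in the report. The 22 reversed values belonged to 8 members, 0 of which had passed the test. With upper quartile and library size scaling these were 0.057 and 0.062 for Trim3, 0.074 and 0.079 for Trim63, 0.087 and 0.092 for Trim72, 0.11 and 0.12 for Trim23, and 0.13 and 0.14 for Trim39. Over the fits that leave out 1 library, Trim63 ran from −0.17 to 0.12 (higher without V1 or T4), Trim72 from −0.15 to 0.14 (without V1 or T4), Trim23 from −0.074 to 0.095 (without V3 or T4), Trim39 from −0.10 to 0.13 (without V1, T5 or T6), Trim35 from −0.022 (without V2) to 0.062, Trim24 from −0.021 (without V1) to 0.12 and Trim62 from −0.049 (without T6) to 0.15. Apart from the scalings, whose shift is given, the cause was not tested. No paired analysis was possible because the replicate numbers of the groups (1 to 3 and 4 to 6) are not shared. Depth limits the members with few counts, such as Trim30b, Trim30c, Trim5 and Trim36, whose standard errors were 0.26 to 0.35.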
